A study of Rattus norvegicus with 6 samples.

Results

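Toll-like receptors and their adaptors in the dorsal root ganglion (DRG) were examined as a list of 10 genes, namely Tlr1, Tlr2, Tlr3, Tlr4, Tlr5, Tlr7, Tlr9, Cd14, Ly96 and Myd88. The list was put together by gene family and not by the measured values, though with earlier results of these data known. A row with the gene's symbol was found for 9 of the 10 genes among the 43350 gene rows of the table, Ly96 was not analysed here, and 7 of the 9 reached the mean level (0.5 FPKM, a length-scaled unit) that was required for testing. The RNA came from lumbar 4 to 6 DRG of male Sprague-Dawley rats on day 11, and CCI rats (n = 3) were compared with sham rats (n = 3). CCI rats had a chronic constriction injury, in which loose ligatures are tied around the sciatic nerve. In sham rats the nerve was exposed without ligation according to the study's methods, whereas the labels give their treatment as none. The labels speak of a pooled sample in library preparation, while the methods describe 1 rat per sample, so the p-values measure the spread between these 6 samples.

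Toll-like receptors are pattern recognition receptors of innate immunity. Tlr1, Tlr2, Tlr4 and Tlr5 are cell surface receptors for bacterial products such as lipopeptides, lipopolysaccharide and flagellin, whereas Tlr3, Tlr7 and Tlr9 are endosomal receptors for nucleic acids. Cd14 and Ly96 help to present lipopolysaccharide to Tlr4, and Myd88 is the adaptor that links most of these receptors, but not Tlr3, to IRAK kinases, TRAF6 and NF-kappaB. Macrophages express many of them, and receptors of the family have also been described in sensory neurons and glia. A DRG library mixes neurons, satellite glia, Schwann cells, vessels and immune cells, and in such bulk RNA fewer cells of a type and less RNA per cell cannot be told apart.

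Total counts lay between 75423546 and 87615743 reads per library, so 3 reads were worth 0.0342 to 0.0394 CPM (counts scaled to an equal library size). Nerve injury genes separated the groups, and 4 of 4 (Atf3, Sprr1a, Gal and Npy) were higher in the CCI group. Skeletal muscle transcripts stood out in sham 1, where the summed CPM of the muscle markers was 377, against 47.7 in sham 3, 11.5 in sham 2 and 8.48 to 22.4 in the CCI libraries. In CCI 1 the injury genes summed to 279 CPM, against 141 and 130 CPM in the other two CCI libraries. The 7 tested genes were therefore also fitted without CCI 1 and sham 1, where 0 were called and the log2 fold changes were 0.73 for Tlr3, 0.52 for Tlr7, 0.33 for Tlr9, 0.32 for Tlr4, 0.13 for Myd88, -0.04 for Tlr2 and -0.01 for Cd14.

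The regulatory sequence before 4 of the genes is shown because these carry the results below: Tlr7 had the smallest p-value, Tlr4 the highest level, and Tlr2 and Myd88 were the 2 genes whose promoters held a motif of the pathway's own transcription factors. Each run is the RefSeq sequence (GRCr8) from 250 bases before to 50 bases after the transcription start, 5′ to 3′ on the gene's strand, and capitals mark matches to the motifs that were searched on both strands. The windows are chrX:30644176-30644475 on the plus strand for Tlr7, chr5:85160997-85161296 on the plus strand for Tlr4, chr2:171504508-171504807 on the minus strand for Tlr2 and chr8:127956181-127956480 on the minus strand for Myd88.
Tlr7: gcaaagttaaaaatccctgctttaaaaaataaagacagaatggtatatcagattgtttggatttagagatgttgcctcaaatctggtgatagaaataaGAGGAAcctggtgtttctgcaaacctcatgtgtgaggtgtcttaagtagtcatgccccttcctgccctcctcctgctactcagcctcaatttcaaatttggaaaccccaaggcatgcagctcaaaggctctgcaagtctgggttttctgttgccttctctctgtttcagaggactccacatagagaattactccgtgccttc
Tlr4: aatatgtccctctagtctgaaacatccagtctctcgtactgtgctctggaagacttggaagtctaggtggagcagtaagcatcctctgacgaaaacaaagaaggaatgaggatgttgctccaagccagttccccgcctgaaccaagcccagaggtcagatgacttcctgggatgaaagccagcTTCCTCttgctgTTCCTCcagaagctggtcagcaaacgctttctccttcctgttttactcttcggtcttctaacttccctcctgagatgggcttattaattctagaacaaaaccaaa
Tlr2: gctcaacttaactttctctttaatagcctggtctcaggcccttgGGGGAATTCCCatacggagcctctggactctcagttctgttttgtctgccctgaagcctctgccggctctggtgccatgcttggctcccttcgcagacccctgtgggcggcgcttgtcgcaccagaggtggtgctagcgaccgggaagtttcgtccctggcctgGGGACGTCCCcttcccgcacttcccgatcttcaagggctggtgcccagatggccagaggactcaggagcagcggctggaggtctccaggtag
Myd88: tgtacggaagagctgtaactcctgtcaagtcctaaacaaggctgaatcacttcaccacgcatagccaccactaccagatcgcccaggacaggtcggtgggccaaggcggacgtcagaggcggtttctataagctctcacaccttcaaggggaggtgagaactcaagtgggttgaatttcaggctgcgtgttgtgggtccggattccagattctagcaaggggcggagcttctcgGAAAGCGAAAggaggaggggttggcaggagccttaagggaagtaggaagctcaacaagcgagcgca

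GAGGAA, the core bound by PU.1, a transcription factor of myeloid cells, matched in the promoters of 5 of the 9 genes (Tlr3, Tlr4, Tlr7, Tlr9 and Cd14), in 8 of 11 macrophage marker promoters and in 27.5% of all 27457 promoters of the same length. The NF-kappaB consensus matched in 1 of the 9 (Tlr2, at a pair of places, with overlapping matches on both strands) and in 7.6% of all promoters. The interferon response element, read by the factors that follow interferon signalling, matched in 1 of the 9 (Myd88) and in 3.77% of all promoters. These matches are letters in a window and not measured binding.

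Among the 7 tested genes none was called higher or lower in the CCI group, and every fitted difference was positive and below the size limit for a call. A gene was called where the unadjusted p was under 0.05 and the log2 difference between groups reached 0.58 in either direction, limits that 2.57% of the 26663 tested rows passed as higher and 1.26% as lower. The median log2 fold change of the 7 genes was 0.19 (range 0.03 to 0.52), against 0.01 over all tested rows. The 95% intervals of Tlr2, Tlr3, Tlr7, Tlr9 and Cd14 reached past 0.58, so a difference of that size lay within them. By edgeR's quasi-likelihood test 0 of 7 had a Benjamini-Hochberg adjusted p under 0.05, which 0.0938% of all rows had. At an unadjusted p under 0.05 it found 1 of 7 (Tlr7), as DESeq2 did, against 0 of 7 by edgeR's exact test and by limma. Of all tested rows, 5.57% were higher at that p at any size. In Tlr3, Tlr7 and Myd88 every CCI library lay above every sham library, a pattern that 8.63% of all tested rows showed.

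**Figure D1:**
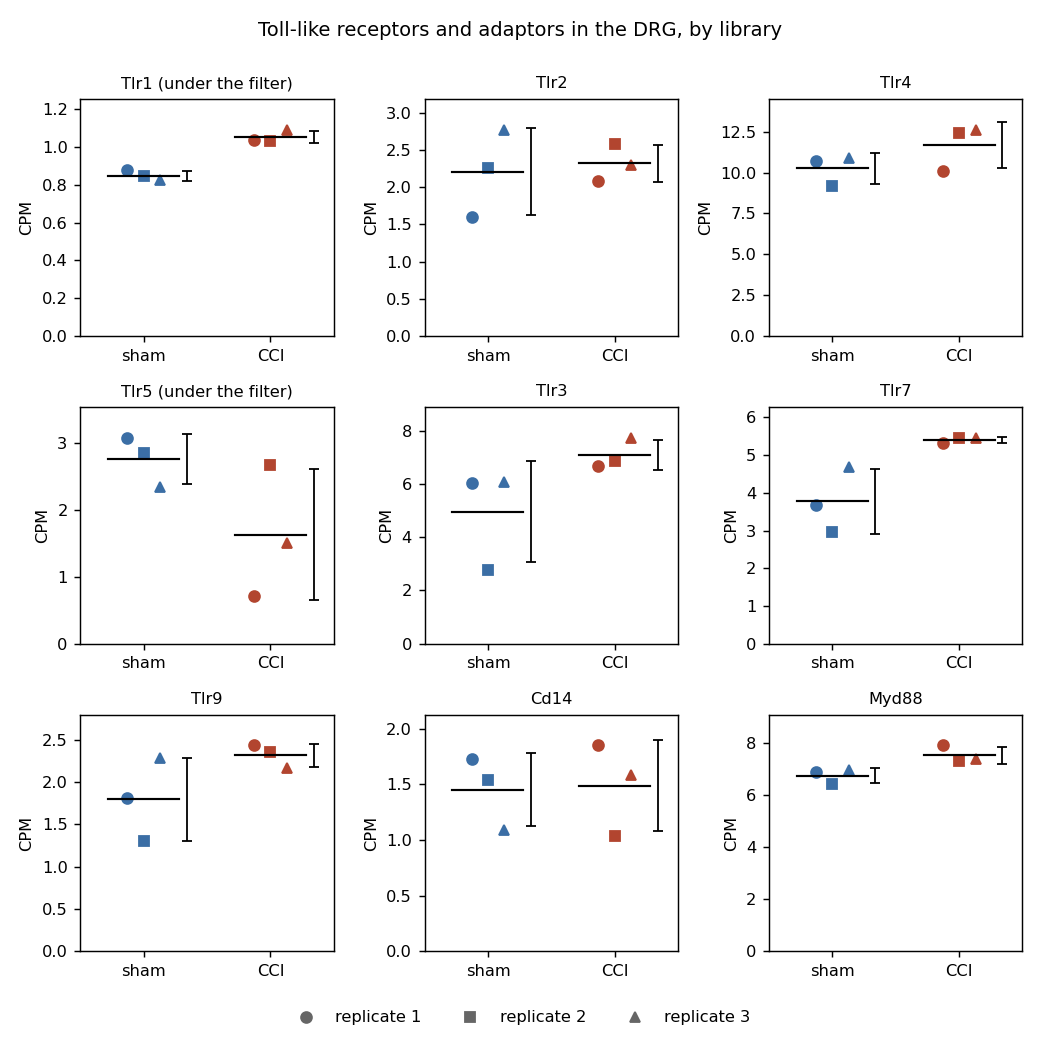
CPM (y axis, from 0) of the 9 genes with a row in each of the 3 sham and 3 CCI libraries; horizontal lines are group means, bars at the side are SD, and symbols mark the replicate. CCI points lie above all sham points for Tlr1, Tlr3, Tlr7 and Myd88, and sham 2 is the lowest sham point for Tlr3, Tlr4, Tlr7, Tlr9 and Myd88.

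Levels can be compared between genes only per length, on the FPKM scale (read fragments scaled by depth and by row length). Tlr4 had the highest mean over the 6 libraries, at 2.99 ± 0.382 FPKM (SD, n = 6), and Myd88 followed at 2.64 ± 0.202. Tlr3 came next at 1.23 ± 0.354, with a highest library of 1.59 FPKM that stayed under the lowest Myd88 library of 2.35 FPKM. Below it the ranges of neighbouring genes overlapped, from Tlr7 (0.975 FPKM) through Tlr2 (0.794), Cd14 (0.787), Tlr9 (0.573) and Tlr5 (0.468) to Tlr1 (0.366). Tlr4 and Myd88 overlapped as well. The whole family was low in this tissue, since the median over 12988 tested protein-coding rows was 5.55 FPKM, and Tlr4 stood above 29.4% of those rows, Myd88 above 26.2%, Tlr3 above 11.1%, Tlr7 above 7.86% and Tlr9 above 1.64%.

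**Figure D2:**
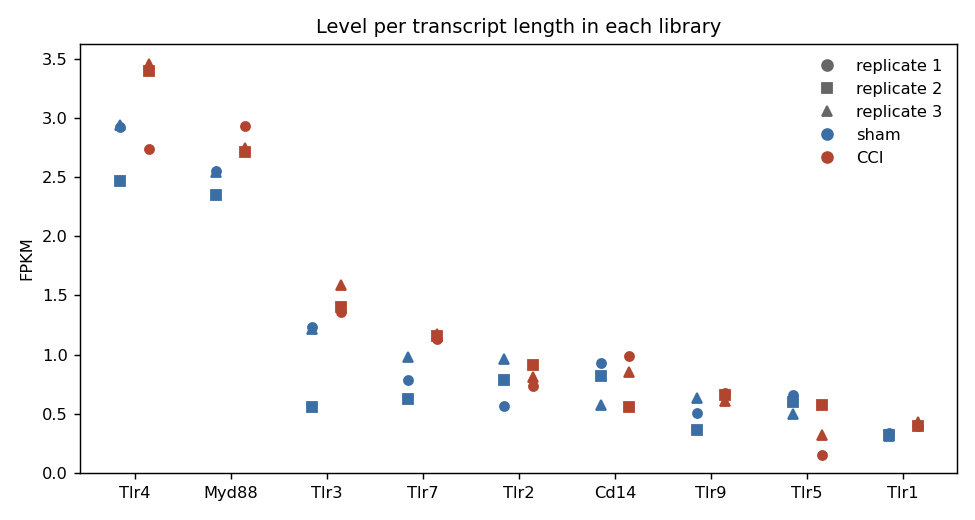
FPKM (y axis) of the 9 genes in each library, ordered from left to right by their mean; blue points are sham, red points are CCI, and symbols mark the replicate. Tlr4 and Myd88 lie between 2.35 and 3.46 FPKM in every library, above the other genes.

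Among the endosomal receptors, Tlr7, a sensor of single-stranded RNA, had 5.31, 5.45 and 5.46 CPM in CCI 1, 2 and 3, against 3.68, 2.95 and 4.68 CPM in sham 1, 2 and 3. The CCI libraries were nearly level, the sham libraries were spread, and the groups did not overlap. Its log2 fold change was 0.52 (SE 0.19, 95% interval 0.06 to 0.98), with an unadjusted p of 0.0323, under the limit of 0.05, and a Benjamini-Hochberg adjusted p of 0.409 in edgeR's quasi-likelihood test. Without sham 3 the difference was 0.70 and Tlr7 was called higher, and without sham 2 it was 0.37 and was not called. The deposited row of Tlr7 runs from 28486869 to 28512957 on the plus strand of chromosome X in the study's rat genome V101. The row of Tlr8, a related gene, lies 26200 bases away. Whether the 2 genes share sequence that affects their counts was not tested.

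Tlr3, a sensor of double-stranded RNA, had 6.68, 6.88 and 7.74 CPM in CCI 1 to 3 and 6.03, 2.76 and 6.07 CPM in sham 1 to 3. The groups did not overlap, and sham 2 lay far below all other libraries. The log2 fold change of 0.52 (SE 0.30, 95% interval -0.21 to 1.25) had an adjusted p of 0.632 by edgeR, and without sham 2 it was 0.23. Tlr9, a sensor of unmethylated CpG DNA, had 2.43, 2.35 and 2.16 CPM in the CCI group and 1.81, 1.3 and 2.28 CPM in the sham group. Sham 3 lay within the CCI range and sham 2 was again the lowest. Its log2 fold change was 0.36 (SE 0.24, adjusted p = 0.680 by edgeR), and 0.18 without sham 2.

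Among the cell surface receptors, Tlr4, the lipopolysaccharide receptor, had 10.1, 12.4 and 12.6 CPM in the CCI group and 10.7, 9.16 and 10.9 CPM in the sham group. CCI 1 lay below sham 1 and sham 3, so the groups overlapped. The log2 fold change was 0.19 (SE 0.13, 95% interval -0.13 to 0.50, adjusted p = 0.696 by edgeR), and the interval ended below the calling limit of 0.58. A second row named Tlr4, which begins past the end of the first after a gap of 88 bases and has no assigned strand, had a log2 fold change of 0.07 (adjusted p = 0.913 by edgeR).

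Tlr2, which pairs with Tlr1 or Tlr6 to bind lipopeptides, had 2.09, 2.58 and 2.30 CPM in the CCI group and 1.60, 2.26 and 2.77 CPM in the sham group. Sham 1 was the lowest library and sham 3 the highest, so the sham group spanned the CCI group. The log2 fold change was 0.07 (SE 0.24, 95% interval -0.51 to 0.66, adjusted p = 0.953 by edgeR), and its sign turned without sham 1 (-0.11) and without CCI 2 (-0.01).

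Tlr1 and Tlr5 had a mean FPKM under the filter of 0.5 and were fitted only without it. Tlr1, the partner of Tlr2, had 84, 83 and 83 reads in the CCI group and 77, 67 and 68 in the sham group, or 1.04, 1.03 and 1.09 against 0.877, 0.845 and 0.824 CPM. The groups did not overlap, but the fitted log2 fold change of 0.31 (SE 0.23, 95% interval -0.24 to 0.86) had an adjusted p of 0.730 by edgeR in the fit without the filter. Tlr5, the flagellin receptor, had 58, 215 and 115 reads in the CCI group and 270, 226 and 194 in the sham group. CCI 1 was the lowest and CCI 2 lay within the sham range. It was the one gene of the 9 with a negative estimate, a log2 fold change of -0.76 (SE 0.44, 95% interval -1.81 to 0.30, adjusted p = 0.705 by edgeR).

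Of the co-receptor and adaptor, Cd14 had 1.85, 1.04 and 1.58 CPM in the CCI group and 1.73, 1.54 and 1.09 CPM in the sham group. The groups covered almost the same range, and the log2 fold change was 0.03 (SE 0.30, 95% interval -0.68 to 0.75, adjusted p = 0.982 by edgeR). Myd88 had 7.90, 7.29 and 7.38 CPM in the CCI group and 6.87, 6.41 and 6.95 CPM in the sham group. All 3 CCI libraries were above all 3 sham libraries, by a small margin, and the log2 fold change was 0.16 (SE 0.11, 95% interval -0.10 to 0.42, adjusted p = 0.691 by edgeR).

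**Figure D3:**
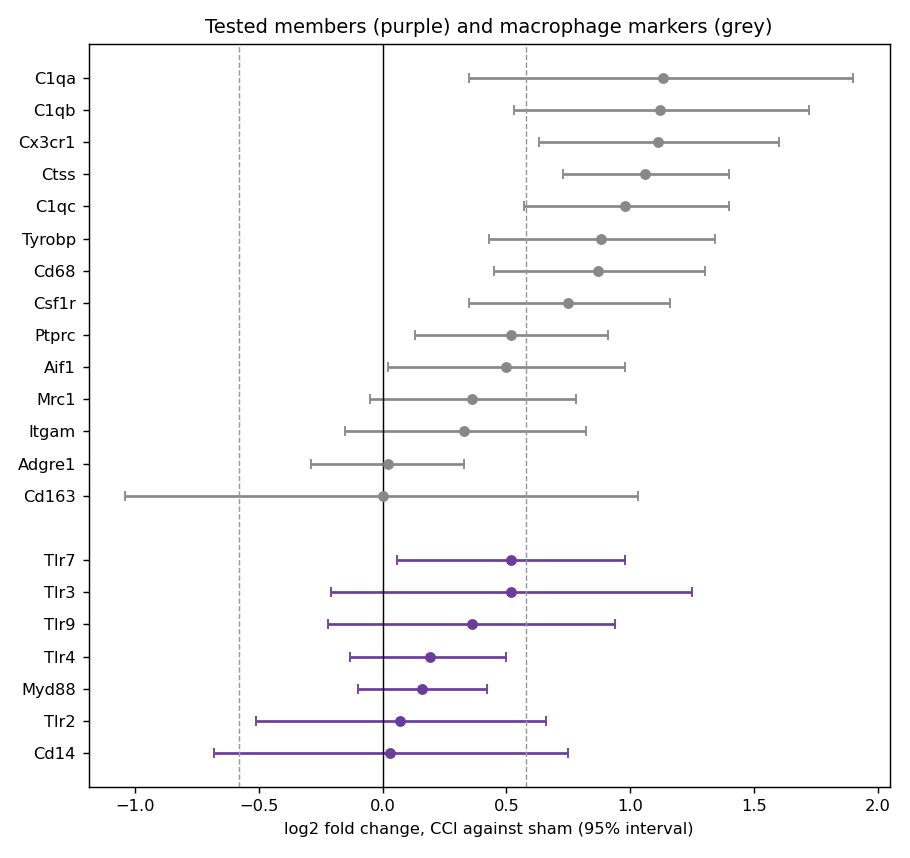
Log2 fold change of the CCI group against the sham group (x axis, with 95% interval) for the 7 tested genes (purple) and 14 macrophage markers (grey); dashed lines stand at 0.58 in each direction. The purple points lie between 0.03 and 0.52 with Tlr7 alone clear of 0, while 8 grey points lie past 0.58.

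Part of the macrophage markers moved with the groups. Of 14 markers 8 were called higher in the CCI group (Cd68, Csf1r, Cx3cr1, Tyrobp, Ctss, C1qa, C1qb and C1qc), with a median log2 fold change of 0.81 over the list. The 6 not called were Ptprc (0.52), Aif1 (0.50), Mrc1 (0.36), Itgam (0.33), Adgre1 (0.02) and Cd163 (-0.0). By edgeR 0 of the 14 had an adjusted p under 0.05. Without CCI 1 and sham 1 the number called was again 8, with Ptprc in and C1qa out. Cx3cr1, the fractalkine receptor, had a log2 fold change of 1.11 (SE 0.20, adjusted p = 0.136 by edgeR's quasi-likelihood test), and Csf1r, the receptor for macrophage colony-stimulating factor, 0.75 (SE 0.17, adjusted p = 0.208 by edgeR). The summed level of the 14 markers was 235, 203 and 164 CPM in CCI 1 to 3. It was 117, 115 and 145 CPM in sham 1 to 3, a 1.59-fold difference without overlap. Neutrophil markers did not separate the groups over all 6 libraries, at 13.8, 11.5 and 10.0 against 23.9, 9.44 and 8.30 summed CPM, with 0 of 4 called. This depended on sham 1, the highest library. The median log2 fold change of the list was -0.5 in the main test, 0.22 without sham 1 and 0.01 without CCI 1 and sham 1. In the last 2 settings S100a9 was called higher. T cell markers had at most 27 reads in any library and B cell markers at most 60, and none of either was tested. Of 4 endothelial, 6 satellite glia, 6 Schwann cell and 9 sensory neuron markers tested, 0 were called in each list. Still, 4 of the 9 neuron markers had an unadjusted p under 0.05 by edgeR, in both directions. Their log2 fold changes were -0.54 for Nefh, -0.39 for Snap25, 0.31 for Tubb3 and 0.25 for Prph. The part of any of these cell types in the values of the Toll-like receptor genes was not tested.

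Set against the summed macrophage markers of the same library, the 7 genes had a lower mean ratio in the CCI group in 7 of 7 cases, with a median log2 difference of -0.49. The same was seen across the table, where the marker sum itself differed by 0.67 on the log2 scale and 94.5% of the 25842 tested rows with a read in every library also had a lower mean ratio (median -0.67). Without CCI 1 and sham 1 the median of the 7 genes was -0.18, with 5 of 7 lower. Myd88 amounted to 3.36%, 3.59% and 4.49% of the marker CPM in CCI 1 to 3 and 5.88%, 5.58% and 4.81% in sham 1 to 3. Its ratio alone among the 7 did not overlap between the groups (1 of 7, against 58.0% of all those rows), with a log2 difference of -0.51 (exact two-sided permutation test, p = 0.1, the smallest that 3 against 3 allows). Tlr4 made up 4.28%, 6.12% and 7.66% in the CCI group and 9.15%, 7.98% and 7.55% in the sham group, and CCI 3 reached the sham range (log2 difference -0.49, exact permutation p = 0.2). Tlr7 and Tlr3 differed least in this ratio, by -0.13 (exact permutation p = 0.7) and -0.07 (exact permutation p = 0.9).

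Over Ptprc, the pan-leukocyte gene that encodes CD45, 5 of 7 genes were lower in the CCI group with a median log2 difference of -0.35, against 92.2% of all those rows and a median of -0.53. Over the summed sensory neuron markers, at 10100 to 10400 CPM in the CCI group and 9910 to 11500 CPM in the sham group, the direction turned, with 0 of 7 lower and a median of 0.26, against 34.2% of the rows lower and a median of 0.08. Tlr3, Tlr7, Tlr9 and Myd88 (4 of 7) were higher in every CCI library than in any sham library on that scale (exact permutation p = 0.1 each), as were 11.8% of the rows. All 7 genes thus had a lower mean ratio over the macrophage markers and a higher one over the neuron markers. The turn was not particular to Myd88. All of these ratios share their denominators across genes. The neuron sum itself holds markers that differed both ways, such as Nefh, lower in the CCI group (mean 2390 against 3490 CPM). Tubb3 was higher (mean 2680 against 2170 CPM).

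**Figure D4:**
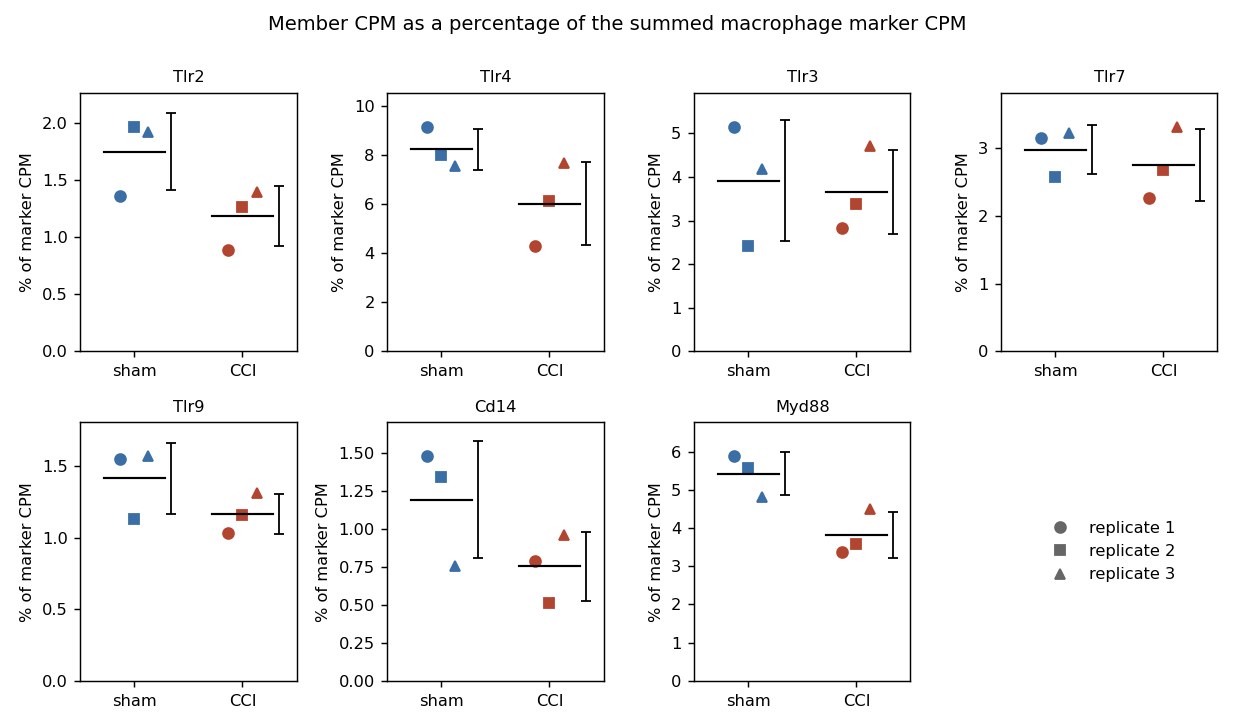
CPM of each of the 7 tested genes as a percentage of the summed macrophage marker CPM in the same library (y axis, from 0); horizontal lines are means, bars are SD (n = 3 per group), and symbols mark the replicate. Group means are lower in the CCI group in each panel, and Myd88 is the panel without overlap.

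The rest of the pathway was read from 7 lists with 88 genes, of which 84 had a row and 66 were tested. Only Ccl2 was called higher among the 66 in the main test, where 2.57% of all tested rows were. Of the 66, 0 were called lower, where 1.26% of all tested rows were. A p under 0.05 was reached by 10 of 66 with a positive difference, where 5.57% of all tested rows did so, and by 3 of 66 with a negative one, where 5.18% did. The lists were chosen with earlier results known, so these counts are a description. Unc93b1, Cd180, Irf5, Irf3, Dusp1, Tnip1, Vcan, Hspd1, Map3k7, Irak4, Tab1, Traf6, Tab3, Il6, Tlr6 and Cxcl1 are named among the pathway genes after their values were seen. Nlrp3, Icam1, Il1b and Cxcl10 are named as the remaining tested target genes. Of the other Toll-like receptors Tlr8, an endosomal sensor of single-stranded RNA, was tested alone and had 6.37, 6.21 and 5.18 against 4.71, 4.95 and 4.28 CPM, without overlap (log2 fold change 0.35, SE 0.14, adjusted p = 0.452 by edgeR). Tlr6 lies 16215 bases from Tlr1 and was under the filter, with 66 to 175 reads per library.

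Other adaptors and accessory proteins had a median log2 fold change of 0.18 over 10 tested genes, and Hsp90b1, the chaperone that folds Toll-like receptors, had the highest level (59.4 FPKM, log2 fold change -0.09). Unc93b1, which carries the nucleic acid receptors to endosomes, had 14.1, 15.0 and 14.8 against 11.8, 12.4 and 12.9 CPM (log2 fold change 0.24, SE 0.08, adjusted p = 0.359 by edgeR). These groups did not overlap. Cd180, a Toll-like receptor homologue of B cells and macrophages, had a log2 fold change of 0.79 (adjusted p = 0.488 by edgeR).

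The 17 kinases and ligases had a median of 0.12 and Tab2, a TAK1-binding adaptor, the highest level (14.3 FPKM, log2 fold change -0.06). Of the 17, 4 had an unadjusted p under 0.05 by edgeR, and none was called. Their log2 fold changes were 0.30 for Irak4, 0.20 for Tab1, 0.19 for Traf6 and -0.21 for Tab3. Map3k7, which encodes TAK1, was at 0 reads in sham 3 and at 23.1 to 29.0 CPM in the other libraries, so its log2 fold change of 0.59 (SE 1.39) rests on that library. Transcription factors had a median of 0.07 over 10 genes, with Rela, a subunit of NF-kappaB, at the highest level (11.5 FPKM, log2 fold change 0.20, adjusted p = 0.554 by edgeR). Irf5 and Irf3, both interferon regulatory factors, had log2 fold changes of 0.50 (adjusted p = 0.327 by edgeR) and 0.42 (adjusted p = 0.414). Negative regulators had a median of 0.02 over 11 genes, led in level by Tollip, a Toll-interacting protein (24.2 FPKM, log2 fold change -0.05). Dusp1, a phosphatase that inactivates MAP kinases, had 0.52 (adjusted p = 0.261 by edgeR), and Tnip1, a binding partner of A20, had 0.25 (adjusted p = 0.281 by edgeR).

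The gene called among the pathway lists, Ccl2, belonged to the inflammatory target genes. The paper had already reported it as higher from these libraries. Ccl2, a chemokine that attracts monocytes, had 24.6, 22.7 and 20.6 CPM in the CCI group and 11.1, 9.07 and 7.68 CPM in the sham group. The groups did not overlap, and its log2 fold change was 1.29 (SE 0.15, Benjamini-Hochberg adjusted p = 0.0712 by edgeR's quasi-likelihood test). It was 1 of 5 tested genes of a list of 17. Il6, the cytokine interleukin 6, was under the filter with 164, 44 and 24 reads in the CCI group and 0 in each sham library, at least 25.4-fold higher than 3 reads in a sham library (0.0379 CPM). CCI 1 held most of these reads, and without it the bound was at least 11.4-fold. Cxcl1, a neutrophil chemokine, had 0.357, 0.447 and 0.565 CPM in the CCI group and 0.217, 0.101 and 0.0848 CPM in the sham group and was also under the filter. In edgeR's fit without the filter the adjusted p was 0.191 for Il6 and 0.41 for Cxcl1. The other 4 tested genes of the list were not called. Their log2 fold changes were 0.32 for Nlrp3, 0.26 for Icam1, -0.1 for Il1b and -0.19 for Cxcl10. Il12b, Cxcl2 and Ifnb1 had 0 reads in every library. Endogenous ligands of these receptors had a median of -0.16 over 12 genes, with Hsp90aa1, a heat shock protein, at the highest level (log2 fold change -0.02). The sign of that median turned without sham 1 (0.05) and without CCI 1 and sham 1 (0.06), where S100a9 was called higher. Vcan, the proteoglycan versican, had -0.47 (adjusted p = 0.377 by edgeR) and Hspd1, a mitochondrial chaperonin, -0.20 (adjusted p = 0.293 by edgeR).

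The mean of the 7 scaled genes was 0.49, 0.39 and 0.58 in CCI 1 to 3 and -0.39, -1.14 and 0.07 in sham 1 to 3, in SD units. Sham 2 was the lowest of its group for 5 of the 7 genes. Of 11918 other protein-coding genes the pattern was most like that of Jmy (Pearson r = 0.984), Ehmt2 (0.984), Wdr46 (0.981), Ern1 (0.980) and Klhl28 (0.972) over the same 6 libraries. These r values are descriptive, rest on 6 points that share depth and scaling, and belong to genes whose own log2 fold changes lay between 0.08 and 0.14.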

How the data were processed

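RNA of lumbar DRG from 3 CCI and 3 sham rats was sequenced by the authors as ribosomal RNA-depleted, dUTP-stranded libraries. The submitters' processing notes list HISAT2 2.0 and StringTie 1.3.0, and the methods name the rat genome V101. The use of strand in counting is not given in the sources used here. The deposited count values are whole numbers per gene row, not normalized, and are called reads here. The methods name StringTie and edgeR for the estimation of expression levels, so the counts may be estimates. The deposited FPKM values are scaled by depth and row length by the authors. Rows without a symbol (6849) held 5.37% to 5.72% of the counts and stayed in the library sizes.

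The 26663 rows whose mean FPKM reached 0.5 were fitted with edgeR 4.0.16 (quasi-likelihood test, TMM factors, all 6 samples, no covariate, 2.52 prior degrees of freedom), and p-values were adjusted by Benjamini-Hochberg over these rows. The code was tested on simulated data. Alternatives were DESeq2 1.42.0, edgeR's exact test, limma 3.58.1 on log2(FPKM + 0.1) and log2(FPKM + 1), other factors and filters, protein-coding rows, a replicate block and leaving out libraries. Ratios were tested by exact permutation. All 9 promoters and the motif shares came from RefSeq (GRCr8), whose coordinates are not interchangeable with V101. The genes and lists were chosen with earlier results of these data known. Besides the 10 genes, the rule named, in each list, called genes (up to 5 by p) and the tested gene of highest FPKM, and the 5 genes of most similar pattern. Ly96, Tlr10, Tlr13, Ticam1, Cd36, Pecam1, Myh1 and Myh2 were not analysed here. Intervals and floors of 3 reads cover these libraries and counting error only.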

Additional observations from a re-analysis of the deposited data

How the results depend on the processing

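No gene of the family was called lower, or had an adjusted p under 0.05 by the tool used, under any alternative, and 1 was called higher only without sham 3 (Tlr7, log2 fold change 0.70), so that leaving out 1 library gave 0 to 1 calls. The median log2 fold change ranged from 0.12 to 0.29 when 1 library was left out, was 0.14 by limma on log2(FPKM + 1), and was 0.32 without CCI 1 and sham 1, a setting chosen after seeing the data. Leaving out 1 library gave Tlr2 values of -0.11 to 0.27 and Cd14 values of -0.15 to 0.24, and without CCI 1 and sham 1 these were -0.04 and -0.01. Cd14 was -0.15 without CCI 1, -0.01 without CCI 3 and -0.13 without sham 3, and Tlr2 was -0.01 without CCI 2 and -0.11 without sham 1. Calls in the pathway lists numbered 2 with DESeq2, 4 without a filter, which fits more genes (Il1rl1, Il6, Cxcl1, Ccl2), 5 without CCI 1 and sham 1 (Cd180, Irf3, Irf8, Ccl2, S100a9) and 1 to 4 when 1 library was left out, against 1 in the main test. Without sham 1 they were Cd180, Irf8, Ccl2 and S100a9. The cause was not tested. The ratio to the macrophage markers ranged from -0.64 to -0.26 when 1 library was left out, was -0.18 without CCI 1 and sham 1, and turned to 0.26 over sensory neuron markers.

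With a replicate block the median was 0.19, 0 genes were called, and Tlr7 had a log2 fold change of 0.54. The replicate numbers did not pair the samples (correlations of same-numbered deviations -0.0112, -0.0261 and -0.0745). With 3 libraries per group and 58 to 1001 reads per gene and library, the 95% intervals reached from -0.68 to 0.75 for Cd14 and from -0.10 to 0.42 for Myd88, so the precision differed between genes.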
